A study of Mus musculus with 8 samples.

Results

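The miR-181 family of microRNAs was measured in mouse kidneys with and without urinary obstruction. Its 4 members, mmu-miR-181a, mmu-miR-181b, mmu-miR-181c and mmu-miR-181d (mmu stands for the mouse and is left out from here on), were taken by their exact names in the array design, out of 611 mouse miRNAs on the array. Kidneys came from ICR mice, an outbred laboratory strain, in which a ureter had been tied off for 7 days. The 4 UUO kidneys (unilateral ureteral obstruction) were those with the obstruction, and the 4 control kidneys were contralateral kidneys, so they came from animals that had undergone the same operation. No kidney from an unoperated mouse is among the samples analysed here, and the age and sex of the mice are not given in the sources used here. From each kidney 100 ng of total RNA was labelled with Cy3, and each sample was hybridised to its own array. The labels do not say whether the kidneys of a group came from separate mice, so p-values measure only the spread between these samples.

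A miRNA is a short RNA that guides the silencing machinery to messenger RNAs, and it recognises them mainly through its seed, a short stretch near its 5′ end. The miR-181 members share a seed and are abundant in brain, thymus and other lymphoid tissue. miR-181a is best known for its part in lymphocyte development, where it tunes the sensitivity of the T cell receptor, miR-181b is known to restrain NF-κB signalling in endothelium, and members of the family have been described as responsive to TGF-beta, the cytokine that drives tissue fibrosis.

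The mature sequences are shown because the 4 members differ by so little. They are RefSeq's (GRCm38.p6), matched by name, with the seed (bases 2 to 8) in capitals.
miR-181a: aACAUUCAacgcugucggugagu
miR-181b: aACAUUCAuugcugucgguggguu
miR-181c: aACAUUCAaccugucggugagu
miR-181d: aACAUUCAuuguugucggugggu
All 4 carry the seed ACAUUCA, and among the 1679 mature mouse miRNAs of the RefSeq table they were the only 4 that did. Counted from the 5′ end, miR-181a and miR-181b differ by the substitutions A9U, C10U and A21G and by 1 extra base at the end of miR-181b. miR-181b and miR-181d differ by C12U and by 1 base, which miR-181d lacks. miR-181c equals miR-181a but for 1 missing base. The sequences therefore form the close pairs a with c and b with d. How far the probe of a member also captures its near-identical relative was not tested here, so the members' values may not be fully separate.

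The members come from 3 places in the genome. The same mature miR-181a is made from Mir181a-1 (chr1:137966468-137966490, plus strand) and from Mir181a-2 (chr2:38852741-38852763, plus strand). miR-181b likewise is made from Mir181b-1 (chr1:137966650-137966673, plus strand) and Mir181b-2 (chr2:38853845-38853868, plus strand), so each lies beside a copy of miR-181a. Between the hairpins of Mir181a-1 and Mir181b-1 lie 97 bases, and between those of Mir181a-2 and Mir181b-2 lie 1019. In the RefSeq annotation the chromosome 1 pair lies outside annotated genes, with Ptprc, which encodes the leukocyte surface protein CD45, among the nearest genes beyond it. The chromosome 2 pair lies within the span of Nr6a1, which encodes a nuclear receptor, and of the long non-coding RNA Nr6a1os. miR-181c (chr8:84178924-84178945, minus strand) and miR-181d (chr8:84178759-84178781, minus strand) lie next to each other on chromosome 8, between Nanos3 and Mir23a. An array signal for miR-181a or miR-181b does not tell its 2 loci apart.

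All 4 members were well above background on all 8 arrays, so none entered the test through a single group. Levels are given as the summed signal of a member's probes in percent of the array's scaling signal, the 75th percentile of the 371 probes well above background on every array. The scaling signal itself was between 417 and 582 on the control arrays and was 689, 514, 1403 and 1595 on UUO kidneys 1 to 4, and between 228 and 240 miRNAs were above background on control arrays against 243 to 310 on UUO arrays. UUO kidney 2 stood apart from its group. Its mean correlation over the 222 tested miRNAs was 0.964 with the control arrays and 0.887 with the other UUO arrays, and results are therefore given with and without it. As defining markers of the kidney, 5 of 6 listed tubule miRNAs were above background on every array and miR-215 on none. Of a list of 4 brain, liver and pancreas miRNAs, the neuronal miR-124 and the liver miRNA miR-122 were above background on none. The others, miR-9 and miR-375, were not absent, since each array had 1 or 2 members of that list above background, and miR-9 was among the miRNAs tested.

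On this scale all 4 members had a higher mean in UUO kidneys, but none passed the test on all 8 arrays, and the sign of all 4 turned with the normexp background correction. UUO kidneys 1, 3 and 4 lay above the control mean for each member, and UUO kidney 2 lay below it for each, for miR-181a barely, at -0.0037 on the log2 scale. The mean difference was widest for miR-181d and narrowest for miR-181a and miR-181c. With the mean log2 of probes in place of their summed signal, miR-181d was at 0.40, below miR-181b at 0.44.

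miR-181a stood at 18.3%, 24%, 21.8% and 24.6% in control kidneys 1 to 4 and at 22.7%, 22%, 26.9% and 32.3% in UUO kidneys 1 to 4. Only UUO kidneys 3 and 4 lay above all controls, and the other 2 lay inside the control range. The log2 change was 0.22 ± 0.17 (SE, n = 4 each), or 1.16-fold, with a limma adjusted p of 0.387.

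miR-181b stood at 12.5%, 10.6%, 13.3% and 16% in control kidneys 1 to 4 and at 23.2%, 10.3%, 20.8% and 20.9% in UUO kidneys 1 to 4. UUO kidneys 1, 3 and 4 lay above every control, and UUO kidney 2 was the lowest of all 8. Its log2 change was 0.47 ± 0.28 (SE, n = 4 each), or 1.39-fold, with a limma adjusted p of 0.251.

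miR-181c stood at 7.26%, 9.01%, 10.1% and 9.68% in control kidneys and at 12%, 7.30%, 11.1% and 12% in UUO kidneys, in the same order. Again UUO kidneys 1, 3 and 4 exceeded all controls, here by a small margin, and UUO kidney 2 sat beside the lowest control. The log2 change was 0.22 ± 0.20 (SE, n = 4 each), with a limma adjusted p of 0.486.

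miR-181d stood at 3.92%, 3.66%, 5.50% and 3.69% in control kidneys and at 11.9%, 3.12%, 7.26% and 7.52% in UUO kidneys. UUO kidney 1 was the highest, at 2.89-fold the control mean, and UUO kidney 2 the lowest of all 8. The log2 change of miR-181d was 0.70 ± 0.38 (SE, n = 4 each), or 1.63-fold, with a limma adjusted p of 0.230.

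**Figure D1:**
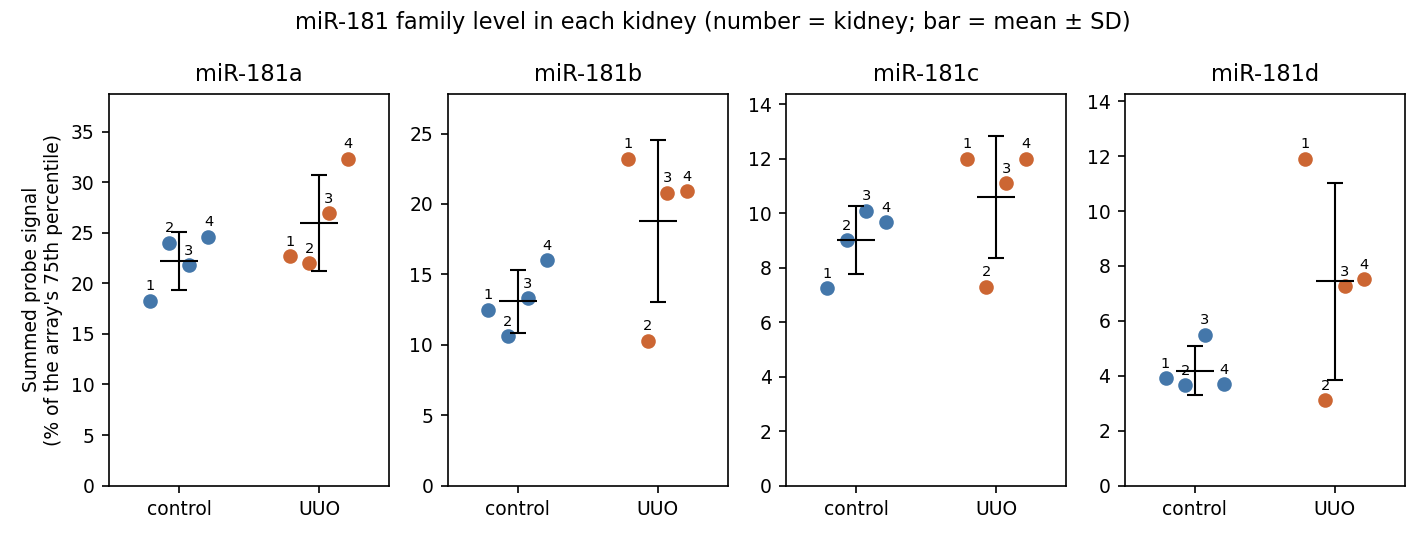
Level of each member in each kidney, as the summed probe signal in percent of the array's 75th percentile signal. Points are single kidneys with their number, and bars give the mean and SD of the 4 kidneys of a group. For miR-181b, miR-181c and miR-181d, UUO kidneys 1, 3 and 4 lie above all control kidneys and UUO kidney 2 does not; under the normexp background correction the group differences turn sign.

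Of the 222 miRNAs tested, limma called 14.9% on all 8 arrays (adjusted p under 0.05), 1.35% higher and 13.5% lower in UUO kidneys, and 0 of the 4 members were called by limma, with 0 at an unadjusted p under 0.05. All 4 log2 changes lay above 0, against 41.9% of all tested miRNAs, and their median was 0.35 beside a median of -0.14 over all tested. No member had groups that did not overlap, whereas among all tested miRNAs 1.80% had non-overlapping groups with UUO higher and 21.2% with UUO lower. Ordered from the largest rise down, miR-181d was 28th of 222, miR-181b 41st, miR-181a 60th and miR-181c 62nd, as a description only. The 95% confidence intervals ran from -0.18 to 0.62 for miR-181a, from -0.17 to 1.11 for miR-181b, from -0.26 to 0.69 for miR-181c and from -0.19 to 1.59 for miR-181d. All 4 intervals include 0.

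When UUO kidney 2 was left out, miR-181b rose by 0.74 ± 0.15 and miR-181d by 1.07 ± 0.23 on the log2 scale (SE, n = 3 and 4), with limma adjusted p-values of 0.00716 and 0.00868, and with normexp both signs turned. These were rises of 1.67-fold and 2.10-fold. miR-181c was at 0.39 ± 0.14 (limma adjusted p = 0.0542) and miR-181a at 0.29 ± 0.17 (limma adjusted p = 0.184). Thus 2 of 4 members were called higher, where that fit called 50.9% of the 222 miRNAs, 20.7% higher and 30.2% lower. The groups did not overlap for 3 of the 4, namely miR-181b, miR-181c and miR-181d, against 23.9% of all tested miRNAs with UUO higher and 32.4% with UUO lower. All 4 changes again lay above 0, against 42.3% of all tested miRNAs. Leaving out the array nearest to the other group widens a difference by its own nature, so these values stand beside those of 8 arrays and do not replace them.

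**Figure D2:**
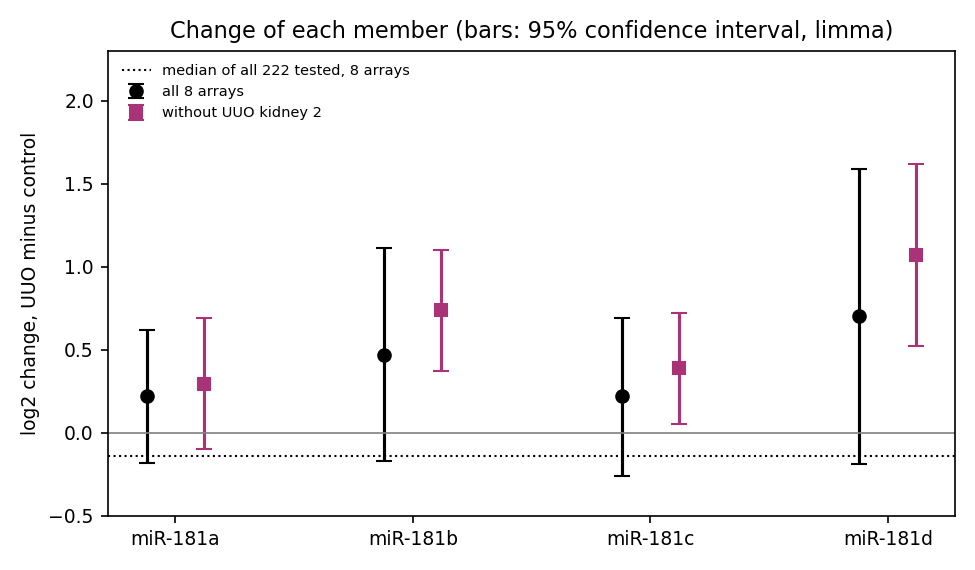
Log2 change of each member, UUO minus control, with 95% confidence intervals from limma, on all 8 arrays (circles) and without UUO kidney 2 (squares). The dotted line marks the median of all 222 tested miRNAs, -0.14. On 8 arrays every interval crosses 0, and without UUO kidney 2 those of miR-181b, miR-181c and miR-181d lie above it; with normexp the changes turn negative.

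The arrays sat in 2 rows of the slide, with kidneys 1 and 2 of each group in row 1 and kidneys 3 and 4 in row 2. Within row 1 the log2 changes were 0.093 for miR-181a, 0.43 for miR-181b, 0.21 for miR-181c and 0.69 for miR-181d. Within row 2 they were 0.35, 0.52, 0.22 and 0.71 in the same order. The sign was the same in both rows for each member, but the row 1 values average UUO kidney 1, which was high, with UUO kidney 2, which was low. For miR-181d these lay at 1.53 and -0.40 from the control mean, and for miR-181b at 0.84 and -0.33.

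Overall brightness of the array also differed between the groups, and its part in the result was not tested. UUO kidneys 3 and 4 had the brightest arrays, with scaling signals of 1403 and 1595. On UUO kidney 1, with a scaling signal of 689 against at most 582 on controls, the summed signal before scaling was 82.3 for miR-181d, against 15.3 to 30.4 on control arrays, and 159.9 for miR-181b, against 44.4 to 93.2. On UUO kidney 2, whose scaling signal of 514 lay inside the control range, the summed signal before scaling was 16.1 for miR-181d and 53 for miR-181b, both inside the control range. For miR-181a the unscaled signals of UUO kidneys 1 and 2 were 157 and 113, against 93.9 to 143 on controls.

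Each member was read by 2 probes, of which 6 of the 8 were well above background on all 8 arrays. For miR-181b both were, with log2 changes of 0.37 and 0.52, and for miR-181c both were, with 0.25 and 0.15. The brighter probe of miR-181a gave 0.21 and the brighter probe of miR-181d gave 0.70. For the dimmer probes of miR-181a and miR-181d no change is given, since most or all control arrays did not read them above background. The dimmer miR-181d probe was well above background on 0 of 4 control arrays and on 3 of 4 UUO arrays. Its signal before scaling was 19.6, 3.32, 22.1 and 28.3 on UUO kidneys 1 to 4 and between 3.74 and 6.55 on controls. The dimmer miR-181a probe was above background on 1 control array and 3 UUO arrays.

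The minor strands, which come from the other arm of a hairpin and carry an asterisk in the older naming, differ between the 2 copies of miR-181a and so can name a locus. They are shown because they differ so little, by a single base in the seed, in capitals, and a single base beyond it.
miR-181a-1*: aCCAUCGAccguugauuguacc
miR-181a-2*: aCCACCGAccguugacuguacc
The first belongs to the chromosome 1 copy and the second to the chromosome 2 copy. How far a probe of either strand also captures the other was not tested. miR-181a-1* was above background on 0 of 4 control arrays and on 2 of 4 UUO arrays, those of UUO kidneys 3 and 4. Its brighter probe read 2.18, 2.43, 4.15 and 3.32 on control arrays 1 to 4 and 7.71, 4.12, 16.8 and 19.0 on UUO arrays 1 to 4, before scaling. UUO kidneys 1, 3 and 4 were the highest, as for miR-181b, miR-181c and miR-181d, but UUO kidneys 3 and 4 were also the brightest arrays. After scaling the summed level was 0.639% to 1.19% in controls and 1.69%, 1.4%, 1.91% and 2.01% in UUO kidneys 1 to 4. All lay under the floor of the scale, so no fold is given. miR-181a-1* was not tested because it was not above background on every array of either group. miR-181a-2* was above background on 0 of 8 arrays, with probe signals between -2.73 and 1.44. It was not detectable here, which does not show that the chromosome 2 copy was silent.

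**Figure D3:**
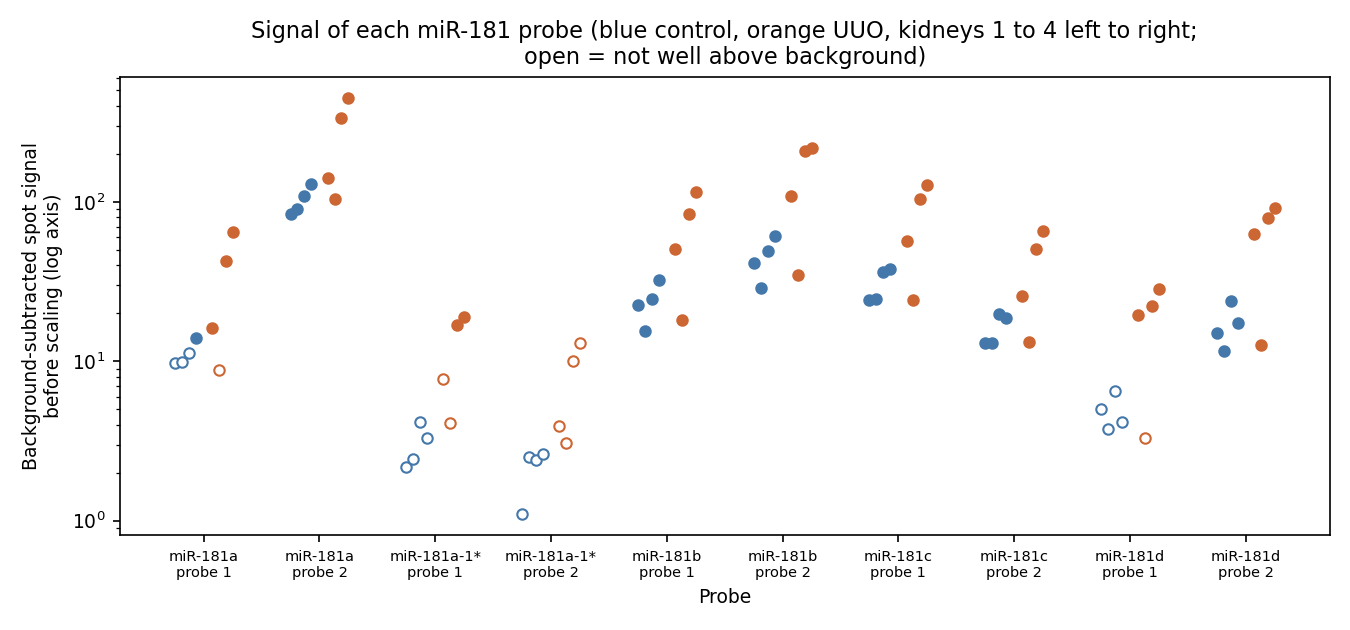
Signal of each probe of the 4 members and of miR-181a-1* on each array, background-subtracted and before scaling, on a log axis, with control kidneys in blue and UUO kidneys in orange, each in the order 1 to 4. Open points were not well above background. The dimmer miR-181d probe is filled on 3 UUO arrays and on no control array.

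Whether members changed unequally was asked with the difference of 2 members within each array, which scaling by a constant per array leaves as it is. All 6 pairs were compared, with exact permutation tests, two-sided, and Benjamini-Hochberg adjustment over the 6. The widest differences were those of miR-181d over miR-181c, 0.49 on the log2 scale (SD 0.50 in UUO and 0.27 in control kidneys, n = 4 each, exact permutation p = 0.143, adjusted p = 0.480), and of miR-181d over miR-181a, 0.48 (SD 0.78 and 0.37, exact permutation p = 0.314, adjusted p = 0.480). miR-181b exceeded miR-181a by 0.25 and miR-181d exceeded miR-181b by 0.23. The change of miR-181c was 0.26 smaller than that of miR-181b in log2 units, a difference of -0.26, and its difference from that of miR-181a was -0.0046. None of the 6 pairs passed (adjusted p from 0.480 to 0.971), and 4 against 4 arrays cannot give an exact p below 0.0286. A p that misses the threshold does not show that the members changed alike. Without UUO kidney 2 the difference between miR-181d and miR-181c was 0.68 (n = 3 and 4, exact permutation p = 0.0286, the smallest these arrays can give, adjusted p = 0.171), and it was positive in 3 of 3 UUO kidneys, between 0.44 and 1.11 above the control mean. UUO kidney 1 gave the largest value in all 3 pairs that set miR-181d against another member, from 0.69 to 1.49.

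Across the 8 arrays, and as a description only since the arrays share their groups and UUO kidney 2, miR-181b and miR-181d followed each other with a Pearson r of 0.889 and miR-181b and miR-181c with 0.865. miR-181c and miR-181d had an r of 0.850. miR-181a was less like the rest, with an r of 0.715 with miR-181c, 0.561 with miR-181b and 0.387 with miR-181d. miR-181a and miR-181b, which are neighbours at both of their loci, were thus not the pair with the most similar profile.

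The miRNAs with the most similar profiles were sought among the 218 other tested miRNAs by Pearson r over the 8 arrays. For miR-181d they were miR-125a-5p (r = 0.980), miR-21 (r = 0.978), a miRNA widely described in organ fibrosis, and miR-199a-3p (r = 0.973). For miR-181b they were miR-342-3p (r = 0.974), which is enriched in lymphoid cells, miR-199a-5p (r = 0.956) and miR-674* (r = 0.955). miR-181c was most like miR-20b (r = 0.959), miR-497 (r = 0.955) and miR-195 (r = 0.953), of which miR-497 and miR-195 share a cluster. For miR-181a they were miR-362-5p (r = 0.903), miR-24-2* (r = 0.845) and miR-497 (r = 0.841). The number of miRNAs with an r above 0.9 was 23 for miR-181d, 13 for miR-181b, 11 for miR-181c and 1 for miR-181a, against a median r between -0.18 and -0.14 over all compared. Many miRNAs thus shared the profile of miR-181d, high in UUO kidneys 1, 3 and 4.

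Of the marker lists of other cell types, that of leukocytes had the highest median change, although none of its members was called on 8 arrays. Of 7 leukocyte miRNAs, 5 were tested, all 5 lay above 0 with a median log2 change of 1.35, and 0 were called on 8 arrays by limma (3 at an unadjusted p under 0.05). Without UUO kidney 2 all 5 were called higher, with a median of 1.98, where that fit called 20.7% of all tested miRNAs higher. Their summed level was between 198% and 271% in control kidneys and was 769%, 188%, 740% and 684% in UUO kidneys 1 to 4, and each of the 7 was above background on at least 1 array. UUO kidneys 1, 3 and 4 were high and UUO kidney 2 was below the controls, the order seen for miR-181b and miR-181d. The part of leukocytes in the result was not tested. In a whole kidney, more cells that carry a miRNA and more of it per cell cannot be told apart.

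The list of 6 miRNAs widely described as raised by TGF-beta had 5 tested members, with a median log2 change of 0.81 and 0 called by limma on 8 arrays (1 at an unadjusted p under 0.05). Without UUO kidney 2, 3 of the 5 were called higher, against 20.7% of all tested miRNAs in that fit. They were miR-21 at 1.27 ± 0.25, miR-155 at 1.98 ± 0.21 and miR-199a-5p at 1.78 ± 0.21 (SE, n = 3 and 4). miR-143 at 0.31 ± 0.15 and miR-494 at 0.33 ± 0.55 were not called. miR-155 stands in the leukocyte list too.

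In the kidney tubule list 2 of 5 tested members were called lower on 8 arrays, against 13.5% of all tested miRNAs. Their log2 changes were -1.27 ± 0.26 for miR-192 (limma adjusted p = 0.0213) and -1.31 ± 0.18 for miR-194 (limma adjusted p = 0.0172), both SE over 4 and 4 kidneys. Not called were miR-10b at -0.48, miR-204 at -0.12 and miR-10a at 0.0043. miR-10b was called lower as well once UUO kidney 2 was left out, at -0.55 ± 0.13 (SE, n = 3 and 4, limma adjusted p = 0.0120). That fit called 30.2% of all tested miRNAs lower. In the mean of the tubule list UUO kidney 2 lay with its group, at -0.59 from the control mean beside -0.54, -0.57 and -0.84 in UUO kidneys 1, 3 and 4, although it did not do so for miR-181b, miR-181c or miR-181d. The erythroid markers miR-451 and miR-486 were at a mean of 1.33 above the control mean in UUO kidney 2 and between -0.92 and -0.44 in the other UUO kidneys, while control kidney 2 was at 2.05. Of the endothelial pair, miR-126-5p fell and stood at -0.81 ± 0.18 on the log2 scale (SE over 4 and 4 kidneys; limma adjusted p = 0.0266, and 0.0120 without UUO kidney 2), and miR-126-3p, at -0.30 ± 0.15, was not called (limma adjusted p = 0.201). Their part in the values of the family was not tested. Of the other lists, 1 member each of the brain, liver and pancreas, striated muscle and smooth muscle lists was tested and not called.

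**Figure D4:**
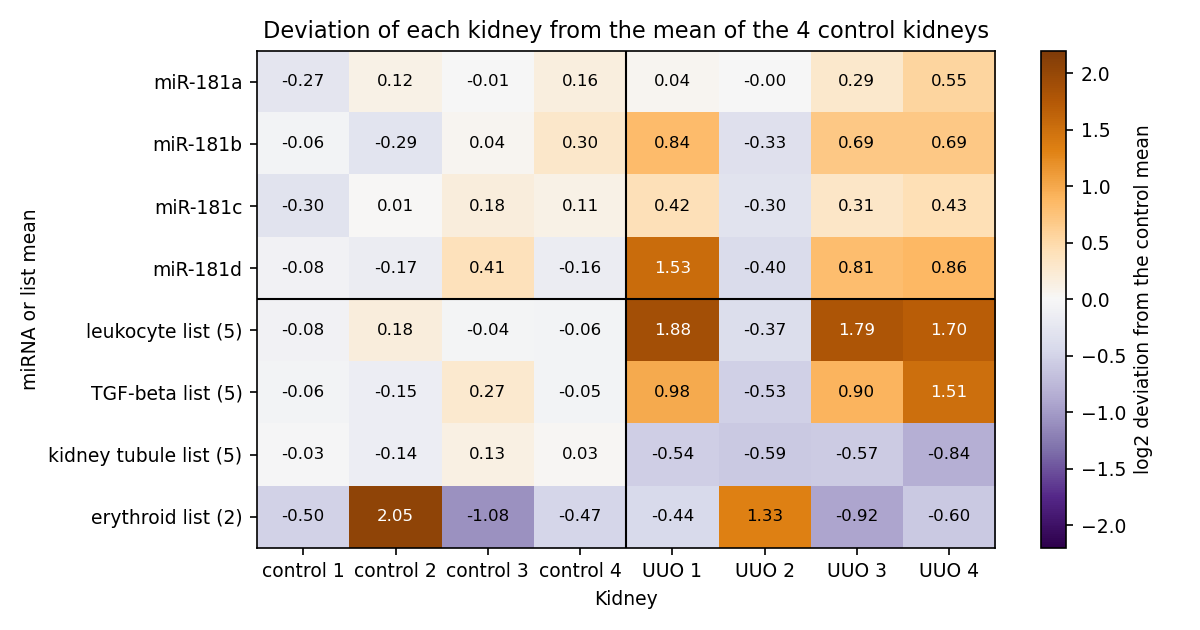
Deviation of each kidney from the mean of the 4 control kidneys on the log2 scale, for the 4 members and for the mean of the tested members of 4 marker lists, with the number of tested members in brackets. In UUO kidney 2 the members lie between -0.40 and -0.0037 and the leukocyte list at -0.37, whereas its tubule list, at -0.59, lies with the other UUO kidneys. The signs of the members' group differences turn under normexp.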

How the data were processed

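The authors deposited intensity values for each spot, background-subtracted and not scaled between arrays. The scanner software was Agilent Feature Extraction, given as 10.7.3.1 in the headers of the deposited files and as 10.1.1 in the submitters' processing notes. The authors' series matrix held the same intensity values (largest difference 0). All 8 arrays lay on 1 slide with 1 scan, per the file headers. Outlier and control spots were left out and no spot was saturated. Spots of a probe were averaged (1759 mouse probes, 611 miRNAs), and the 75th percentile signal of the 371 probes that were well above background everywhere was used to divide each array. The deposited files mark each spot that was well above background. A probe was counted as above background when over 50% of its kept spots carried that mark, a threshold chosen here. Probe signals of a miRNA were summed, floored at 0.0213 (the median over arrays of the lowest 1 percent point of probes above background) and put on the log2 scale. A fold change is therefore relative to the bright miRNAs of the array, and the number of arrays limits the precision.

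A miRNA was tested where every array of a group (4 of 4) had it above background, which 222 did, with limma 3.58.1 in R 4.3.3 (lmFit and eBayes, two-sided, Benjamini-Hochberg over all 222, adjusted p under 0.05), checked on simulated data. Members, lists and tests were chosen with earlier results of these data known. The text names the 4 members, the miR-181 minor strands, the 3 miRNAs most correlated with each member and the lists, of miRNAs known from leukocytes, tubule, endothelium, erythroid cells, brain, liver and pancreas, striated and smooth muscle, and of TGF-beta responsive miRNAs. Alternatives changed the scaling, background correction (normexp, offset 50), floor (5th percentile), filter, probe summary, block, weights and arrays; those joining another scaling to leaving out UUO kidney 2 were chosen after seeing the data. Tables and plots were made with matplotlib 3.10.9, numpy 2.4.6 and pandas 2.3.3 under Python 3.11.15. Gene neighbours were read by name from RefSeq GRCm38.p6.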

Additional observations from a re-analysis of the deposited data

Results flagged for a closer look

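In all, 3 values stood far from the other arrays of their group, with a gap to the nearest, as a share of the group's whole range, above Dixon's 95% critical value. miR-181b in UUO kidney 2 was at -3.28 on the log2 scale, 1.02 below the next UUO kidney (0.868 of the range). miR-181c in UUO kidney 2 was at -3.78, 0.61 below the next (0.838 of the range). miR-181d in control kidney 3 was at -4.19, 0.49 above the next control kidney (0.833 of the range). For 20 groups checked, chance alone marks about 1 in 20. UUO kidney 2 was also the lowest UUO kidney for miR-181a and miR-181d, by a smaller share of the range.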

How the results depend on the processing

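The normexp background correction turned the sign of all 4 members, to -0.42 for miR-181a, -0.48 for miR-181b, -0.74 for miR-181c and -0.78 for miR-181d on 8 arrays, none called, and to -0.45, -0.46, -0.82 and -0.87 without UUO kidney 2. The median of all tested miRNAs moved by -0.48 with normexp, by 0.88 without scaling and by 0.12 with the summed gene signal. Relative to that median, miR-181a and miR-181b stayed above it with normexp, by 0.20 and 0.15, and miR-181c and miR-181d lay at -0.11 and -0.16. Array weights, which gave UUO kidney 2 a weight of 0.114, called miR-181b (0.59) and miR-181d (1.10). They called 138 of the 222 miRNAs, 54 of them higher. Leaving out each array in turn gave 0.11 to 0.29 for miR-181a, 0.35 to 0.74 for miR-181b, 0.11 to 0.39 for miR-181c and 0.42 to 1.07 for miR-181d, with calls only for miR-181b and miR-181d without UUO kidney 2. Without UUO kidney 2, miR-181d was called under quantile normalization (1.13), scaling over all mouse probes (1.13), the summed gene signal (1.52) and no scaling (2.24), and miR-181b under quantile normalization (0.83), the summed gene signal (0.82) and no scaling (1.91). miR-181c was called there with the summed gene signal (0.47) and no scaling (1.56), and miR-181a with no scaling (1.47), where the median of all tested miRNAs moved by 1.15. Without UUO kidney 2, quantile normalization called 100 of the 222 miRNAs (49 higher) and scaling over all mouse probes 72 (33 higher). The summed gene signal called 105 there (48 higher), no scaling 115 (113 higher) and normexp 33 (7 higher). The cause of the shifts between settings was not tested. With normexp an offset of 50 was added to each spot signal before scaling. In the main processing, the brighter miR-181d probe read 11.6 to 23.8 before scaling on control arrays. The part of that offset in the turned signs was not tested. Over all alternatives the limma adjusted p ranged from 0.00506 to 0.957 for miR-181a, from 0.000274 to 0.925 for miR-181b, from 0.0025 to 1 for miR-181c and from 2.1e-05 to 0.925 for miR-181d.

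The differences between members turned sign with normexp for miR-181b over miR-181a (-0.057), miR-181d over miR-181a (-0.36), miR-181d over miR-181b (-0.30) and miR-181d over miR-181c (-0.045), and with the mean log2 of probes for miR-181d over miR-181b (-0.040). With arrays left out in turn the differences ran from 0.069 to 0.44 (b over a), -0.13 to 0.091 (c over a), 0.15 to 0.77 (d over a), -0.35 to -0.16 (c over b), 0.074 to 0.35 (d over b) and 0.28 to 0.68 (d over c), and no adjusted p passed. Filters, weights and slide rows were not run for the pairs, whose test does not use them.

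The number of miRNAs called, 33 on 8 arrays, was 0 with scaling over all mouse probes and with normexp, 3 with no scaling, with quantile normalization and with the summed gene signal, 17 with no filter, 0 within slide row 1, 69 within slide row 2 and 138 with array weights. Arrays left out in turn gave 0 to 113. Without UUO kidney 2 it was 115 with no scaling, 100 with quantile normalization, 72 with all mouse probes, 105 with the summed gene signal and 33 with normexp. With the replicate block it was 0 (67 at an unadjusted p under 0.05), and the members' log2 changes stayed at 0.22, 0.47, 0.22 and 0.70, with limma adjusted p-values from 0.191 to 0.511. The labels do not say whether a control and a UUO kidney of the same number came from 1 mouse, so the numbers were not taken as pairs. Deviations of same-numbered kidneys correlated at -0.347, 0.222, 0.622 and 0.0147, and those of other kidneys at -0.604 to 0.57. With so few kidneys these values cannot decide whether the numbers mark pairs.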

Other observations

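The miRNAs named here were chosen by position with results known. They fall outside the naming rule, except miR-24-2*, which was also among the miRNAs most correlated with miR-181a. In the order of annotated genes on chromosome 8, Mir23a and Mir27a follow the hairpins of miR-181c and miR-181d. The distance between them was not measured here. Of the miRNAs of the Mir23a cluster, miR-23a had a log2 change of 0.19 ± 0.15, miR-27a of 0.30 ± 0.17, miR-24 of 0.011 ± 0.15 and miR-24-2* of 0.46 ± 0.21 (SE, n = 4 each). On 8 arrays limma called none of them (adjusted p from 0.149 to 0.958). Without UUO kidney 2, miR-27a was at 0.42 ± 0.13 and miR-24-2* at 0.58 ± 0.19 (SE, n = 3 and 4), both called, and miR-23a at 0.30 ± 0.11 (limma adjusted p = 0.0564) was not. That fit called 20.7% of all tested miRNAs higher. miR-24 is also made from a second locus, which these probes do not tell apart. Whether the cluster and miR-181d differ in their change was not tested.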
